A study of Homo sapiens with 4 samples.

Results

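The genes of iron storage, uptake and sensing were followed in K562 cells, 10 genes of 61498 in the tables: FTH1, FTL, NCOA4, PCBP1, TFRC, SLC11A2, SLC25A37, SLC25A28, ACO1 and IREB2. They were taken by gene symbol from a fixed list of names, which was chosen with earlier results of these data known. Each symbol belonged to a single gene identifier. K562 is a human erythroleukaemia cell line that carries fetal and embryonic globin expression and can be pushed toward the erythroid state. The study compared 2 libraries of untreated cells with 2 libraries of cells kept for 108 h with 50 µM hemin, the iron-containing porphyrin of haemoglobin. The labels name no other agent or genetic change, and do not say whether replicates were separate cultures, so p-values measure only the spread between these libraries, which may be technical. RNA was selected by poly(A) and read in 50-base reads, and the expected counts, which are the estimates of reads per gene, summed to between 7455447 and 8241534 per library.

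Iron enters erythroid cells mainly as transferrin taken up by the transferrin receptor, leaves the endosome through a metal transporter, and is carried into mitochondria for haem and iron-sulphur cluster synthesis. Iron that is not used is stored in ferritin, a shell of heavy and light chains, and is released when ferritin is delivered to lysosomes. The iron regulatory proteins, which are the products of ACO1 and IREB2, bind hairpins called iron-responsive elements when iron is scarce. Binding in a 5′ untranslated region (UTR) blocks translation, and binding in a 3′ UTR protects the message from decay. Poly(A) RNA-seq measures the amount of a message and not its translation. In bulk samples, fewer cells of a type and less RNA per cell cannot be told apart.

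The hairpins are shown because they mark the 3 members in which the search below found this fold. Coding transcripts of GENCODE 44 (GRCh38) were searched on the sense strand, in their UTRs, for a C, 5 bases, the loop CAGTGN and 5 bases that pair with the first 5, standing on a lower stem with at least 4 of 5 bases paired. G-T pairs were allowed, and the lower stem could begin at the C or past a small internal loop. Of 19676 coding genes, 26 (0.132%) held a match, among them FTH1, FTL and TFRC. In FTH1 the match lies in the 5′ UTR at chr11:61967574-61967602 on the minus strand, and in FTL in the 5′ UTR at chr19:48965335-48965363 on the plus strand. In TFRC all 4 matches lie in the 3′ UTR on the minus strand, at chr3:196050979-196051007, chr3:196050575-196050603, chr3:196050510-196050538 and chr3:196050463-196050491, here named a to d in the order of the message. ALAS2, the erythroid enzyme that starts haem synthesis, is shown with them because its message fell after hemin. Its 29-base window in the 5′ UTR crosses a splice junction. The windows of its transcripts differed only in the last base, and the form ending in g is written here. Whether the junction falls inside the hairpin was not determined. The sequences are written 5′ to 3′ in DNA letters, with the loop in capitals.
FTH1: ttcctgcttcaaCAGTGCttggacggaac
FTL: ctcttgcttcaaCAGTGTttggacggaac
TFRC a: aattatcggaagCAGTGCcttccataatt
TFRC b: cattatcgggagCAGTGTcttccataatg
TFRC c: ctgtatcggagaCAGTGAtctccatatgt
TFRC d: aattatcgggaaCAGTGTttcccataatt
ALAS2: ttcgttcgtcctCAGTGCagggcaacagg
The windows of the ferritin genes shared 26 of 29 bases. Those of TFRC shared 18 to 25 of 29 bases with each other and 9 to 13 with the ferritin windows, and all 4 stood within 545 bases of the 3′ UTR. Among the coding transcripts, 7 of 8 of FTH1, 1 of 1 of FTL and 10 of 11 of TFRC held a match. These count annotated transcripts and not amounts of message. The transcript length of TFRC weighted by abundance was 3576 to 3915 bases over the libraries. Its shortest coding transcript with a match has 4249 bases, so how much of its message held the hairpins is not known. None of the 17 coding transcripts of SLC11A2 matched, which says only that this strict fold is not in their UTRs as annotated. Some messages of SLC11A2 are known to carry an iron-responsive element. EPAS1 (0 of 2 coding transcripts), CDC42BPA (0 of 9) and PFN2 (0 of 14), also known for such an element, had no match either. A gene without a match may therefore still carry one. A match describes the letters and does not show that a protein was bound.

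After hemin, FTH1 rose 1.78-fold, FTL, TFRC and PCBP1 rose by 13.2% to 17.4%, and NCOA4 fell by 10.9%. The other 5 genes were not past the threshold. These are calls of edgeR's quasi-likelihood test on counts scaled by TMM factors (trimmed mean of M values), at a Benjamini-Hochberg adjusted p under 0.05 over 14458 genes tested, and all 10 members passed the filter on low counts. Over all genes tested, 1012 genes (7%) were higher and 1033 (7.14%) lower, with a median log2 fold change of -0.0048. Of the 10 members, 4 were higher and 1 lower, with a median of 0.12. The list was chosen with earlier results of these data known, so its shares only describe it. The called members also had more counts than the members not called, and small changes are easier to call in such genes. Whether the shares differ beyond this was not tested. Of all calls, 49.5% were higher, and with scaling to library size only the share was 34.9%. With limma on log2(TPM + 1), which called 14 genes higher and 33 lower in all, FTH1 was the only member to pass.

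**Figure D1:**
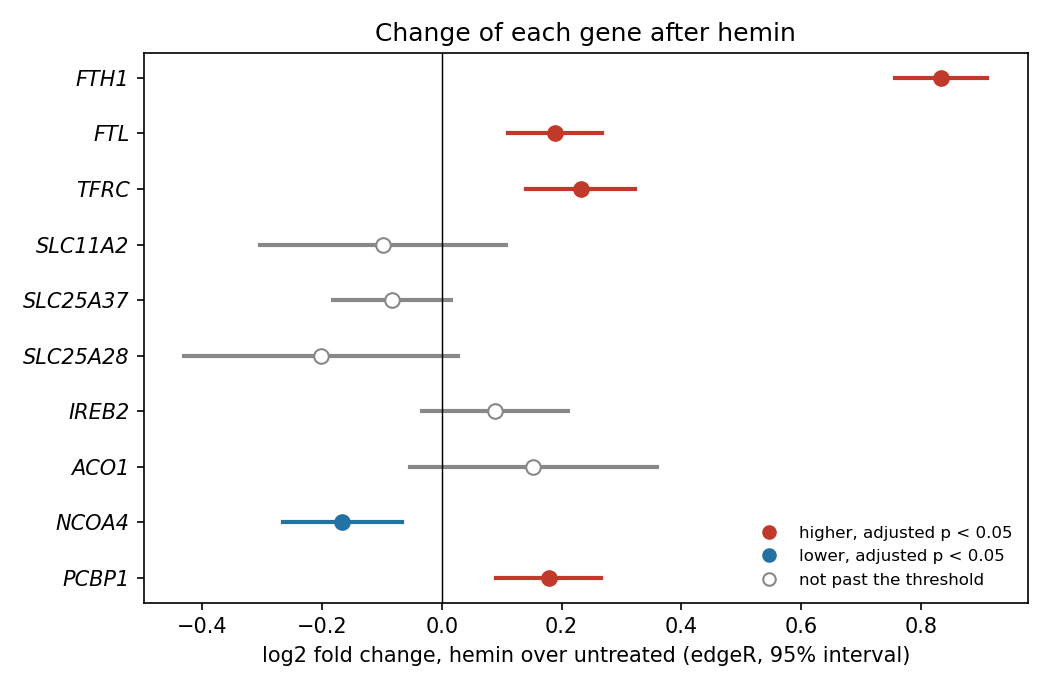
Log2 fold change of each gene after hemin (horizontal axis, hemin over untreated, from edgeR on counts of 2 libraries per group), with 95% intervals as bars. Filled points passed an adjusted p of 0.05. FTH1 stands at 0.83, the other filled points lie between -0.17 and 0.23, and the intervals of the open points cross 0.

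The order of the genes by level, in TPM (transcript abundance allowing for length, scaled to the same total in each library), was the same in all 4 libraries. It ran from FTH1 and FTL through PCBP1, TFRC, NCOA4, SLC25A37, IREB2, SLC25A28 and SLC11A2 down to ACO1. Neighbours in this order did not overlap between genes within a condition. The closest were SLC25A28, at 36.9 ± 2.33 TPM (SD, n = 2), and SLC11A2, at 26.5 ± 8.47 TPM (SD, n = 2), in untreated cells, whose ranges of 1 SD around the mean overlapped.

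**Figure D2:**
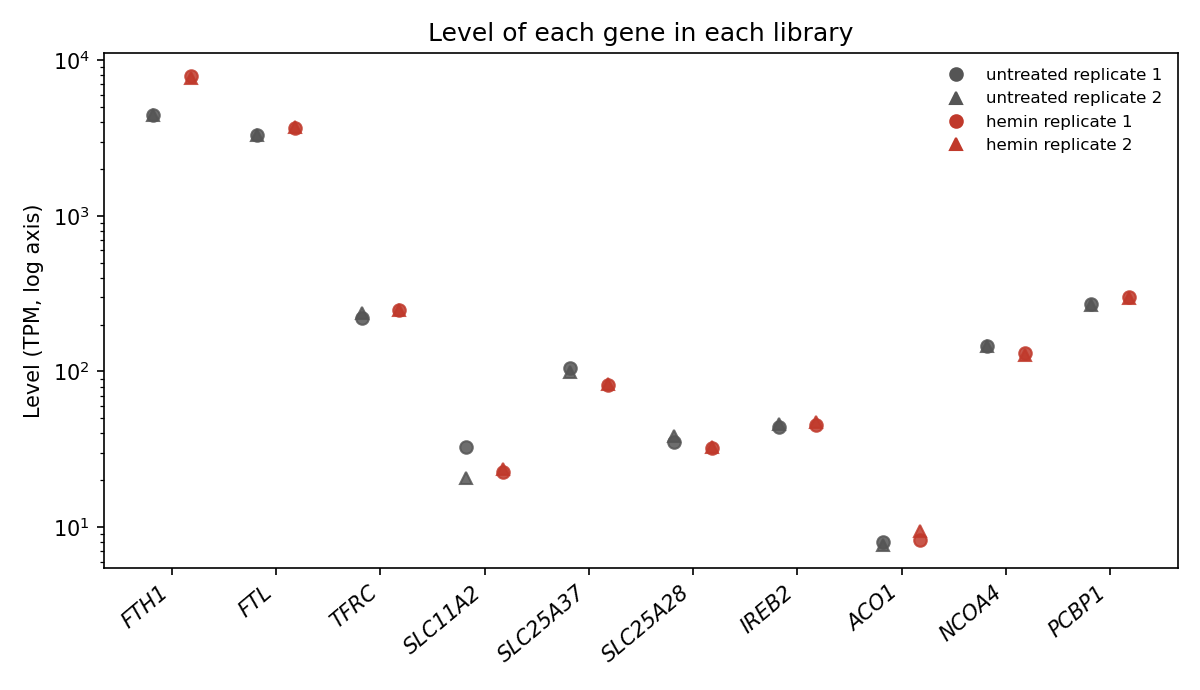
Level of each gene in TPM (vertical log axis) in each library, with untreated libraries in grey and hemin libraries in red, and the replicate given by the symbol. FTH1 had means of 4461 TPM in untreated cells and 7779 TPM after hemin, while ACO1 stayed between 7.72 and 9.39 TPM.

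The ferritin genes were among the most abundant messages of these cells. FTH1 (ENSG00000167996, chr11:61959718-61967634, minus strand, GRCh38) encodes the heavy chain, which carries the ferroxidase activity that oxidises iron for storage. Untreated replicates 1 and 2 held 17536 and 16984 of its counts, and hemin replicates 1 and 2 held 29755 and 32099. Its level was 4461 ± 3.75 TPM (SD, n = 2) in untreated cells and 7779 ± 126 TPM (SD, n = 2) after hemin. Both hemin libraries lay far above both untreated ones. The log2 fold change of the counts was 0.83, with a standard error of 0.034, a 95% interval of 0.76 to 0.91 and an adjusted p of 1.4e-05 in edgeR. By TPM among genes of the nuclear genome, FTH1 ranked 5 in both untreated libraries and 2 in both hemin libraries, and its share of all TPM moved from 0.446% in each to 0.787% and 0.769%. In all, 40 genes called higher had a larger log2 fold change than FTH1, and of the 123 genes with a mean of at least 1000 TPM, 101 of them nuclear, 0 did.

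FTL (ENSG00000087086, chr19:48965309-48966879, plus strand) encodes the light chain, which favours formation of the iron core. Its counts were 15343 and 14750 in untreated cells and 16390 and 18116 after hemin, which is 3318 ± 7.52 TPM (SD, n = 2) against 3700 ± 15.5 TPM (SD, n = 2). The groups did not overlap in TPM, and the log2 fold change of the counts was 0.19, with a standard error of 0.035 (edgeR adjusted p = 0.00865). By TPM it ranked 11 in both untreated libraries and 9 in both hemin libraries among nuclear genes.

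The ratio of the chains moved toward FTH1. The ratio of FTH1 to FTL in TPM was 1.34 and 1.35 in untreated libraries and 2.13 and 2.07 in hemin libraries. That is a log2 change of 0.64, and the groups did not overlap. An exact two-sided permutation test over the 4 libraries gave p = 0.333, which is the smallest it can give with 2 against 2.

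**Figure D3:**
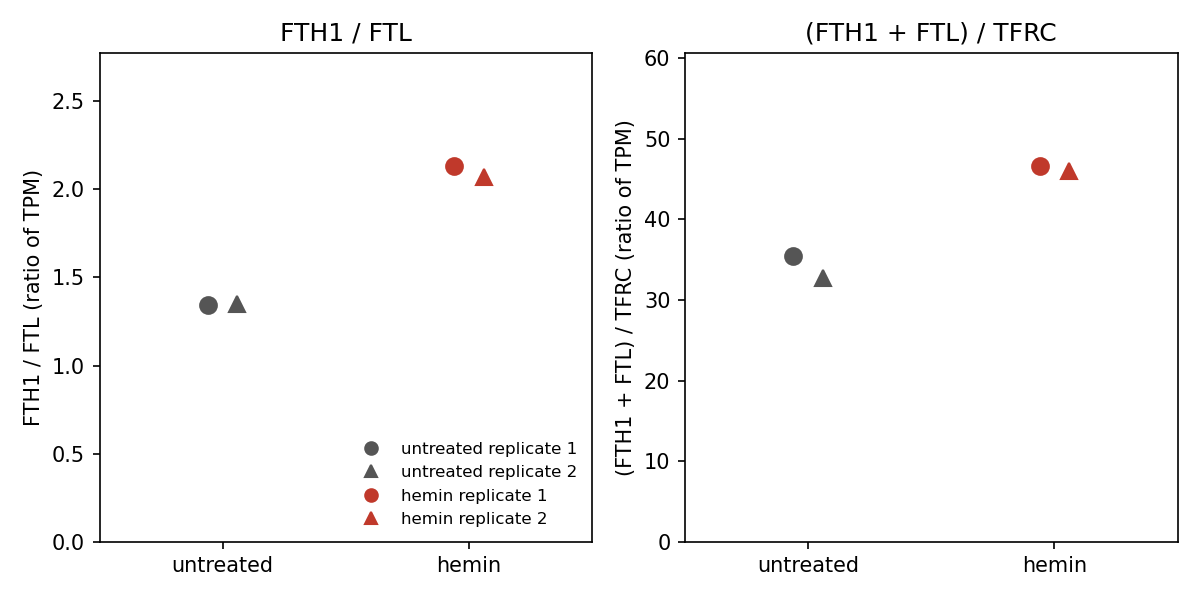
Ratio of TPM values in each library, for FTH1 over FTL (left) and for FTH1 plus FTL over TFRC (right), with both vertical axes starting at 0. The hemin libraries lie above the untreated ones in both panels, at 2.07 and 2.13 against 1.34 and 1.35 on the left and at 46.1 and 46.6 against 32.7 and 35.4 on the right.

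Processed pseudogenes share sequence with both ferritin genes. The 25 annotated FTH1 pseudogenes together held between 0.646% and 0.694% of the counts of the FTH1 family in any library, and the 16 of FTL between 0.181% and 0.256% of those of the FTL family. With the pseudogene counts summed into the parent gene, the log2 fold change of FTH1 was again 0.83. FTH1P7 went from 34 and 29 counts to 67 and 84 (log2 fold change 1.25, edgeR adjusted p = 0.00588), with a posterior SD, which is the uncertainty from dividing shared reads, of up to 22.8% of its count. FTH1P2 went from 19 and 5 counts to 32 and 49 (log2 fold change 1.74, edgeR adjusted p = 0.0382), and its posterior SD reached 97% of its count. FTH1P1 was at -0.96 and FTLP3 at -0.04 without passing the test, and FTLP12 and FTLP2 had too few counts to be tested. Reads of these copies and of their parent genes cannot be fully told apart, and the share of the parent in the rise of FTH1P7 and FTH1P2 was not tested. For every member the posterior SD was at most 0.138% of its count.

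NCOA4 and PCBP1 act on ferritin from opposite sides. NCOA4 (ENSG00000266412, chr10:46005088-46030623, minus strand) is the receptor that brings ferritin to lysosomes, where its iron is released. It was read by 2580 and 2587 counts in untreated cells and by 2202 and 2432 after hemin, or 145 ± 0.24 TPM (SD, n = 2) against 130 ± 2.14 TPM (SD, n = 2). Both hemin libraries were lower, with a log2 fold change of -0.17 and a standard error of 0.044 (edgeR adjusted p = 0.0354). The call did not hold when untreated replicate 2 (adjusted p = 0.174), hemin replicate 1 (0.107) or hemin replicate 2 (0.0618) was left out of the edgeR fit, nor with DESeq2 (0.068). The ratio of FTH1 to NCOA4 in TPM was 30.7 and 30.8 in untreated libraries and 59.9 in both hemin libraries.

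PCBP1 (ENSG00000169564, chr2:70087477-70089203, plus strand), a chaperone that hands iron to ferritin and also binds RNA, was read by 2549 and 2425 counts in untreated cells and by 2710 and 2951 after hemin. In TPM that was 269 ± 2.62 (SD, n = 2) against 298 ± 1.89 (SD, n = 2). The hemin libraries were higher without overlap, at a log2 fold change of 0.18 with a standard error of 0.039 (edgeR adjusted p = 0.0167). Without untreated replicate 1 the adjusted p was 0.0715 and without untreated replicate 2 it was 0.0595 in the same edgeR test. A long non-coding gene on the other strand, PCBP1-AS1, overlaps PCBP1 and was read by 227 and 232 counts in untreated cells and by 266 and 297 after hemin. The use of strand in the quantification is not given in the sources used here, so reads of PCBP1 and its antisense partner may not be separable.

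Of the uptake genes, TFRC passed the test and SLC11A2 did not. TFRC (ENSG00000072274, chr3:196012511-196082153, minus strand) encodes the transferrin receptor, the main gate for iron in erythroid cells. It was read by 4595 and 4541 counts in untreated cells and by 5116 and 5680 after hemin. The counts did not overlap between groups, and the log2 fold change was 0.23 with a standard error of 0.041 and a 95% interval of 0.14 to 0.32 (edgeR adjusted p = 0.0067). In TPM the level was 229 ± 12.9 (SD, n = 2) against 248 ± 0.156 (SD, n = 2), a log2 change of only 0.12. Messages of TFRC and of both ferritin chains rose, and the ratio of FTH1 plus FTL to TFRC in TPM went from 35.4 and 32.7 to 46.6 and 46.1, a log2 change of 0.45. The exact two-sided permutation test of this ratio gave p = 0.333, again the smallest possible. Taken from expected counts, the log2 change of the ratio was 0.34.

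SLC11A2 (ENSG00000110911, chr12:50979401-51028566, minus strand) encodes the divalent metal transporter that moves iron out of the endosome, and its messages differ at the 3′ end. It was read by 313 and 269 counts in untreated cells and by 276 and 270 after hemin, with overlapping groups. The log2 fold change was -0.10 with a 95% interval of -0.30 to 0.11 (edgeR adjusted p = 0.529), so changes inside these bounds are not excluded. In TPM the untreated libraries were at 32.5 and 20.5, farther from each other than either hemin library, at 22.5 and 23.7, was from the lower of them.

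The mitochondrial importers were both below the untreated level without passing the test. SLC25A37 (ENSG00000147454) encodes mitoferrin 1, the form that erythroid cells use. Its counts were 1648 and 1520 in untreated cells and 1464 and 1543 after hemin. As a share of all counts that was 0.0211% and 0.0204% against 0.0195% and 0.0187%, so the groups overlapped in raw counts and did not overlap once depth was allowed for. The log2 fold change was -0.08 with a 95% interval of -0.18 to 0.016 (edgeR adjusted p = 0.25). SLC25A28 (ENSG00000155287, chr10:99610519-99622793, minus strand) encodes mitoferrin 2, found in most tissues. It was read by 194 and 172 counts in untreated cells and by 149 and 171 after hemin, so the raw counts barely separated. As a share of all counts that was 0.0025% and 0.0023% against 0.002% and 0.0021%. The log2 fold change was -0.20 with a 95% interval of -0.43 to 0.027 (edgeR adjusted p = 0.226). For this and other genes, lack of overlap is weak evidence, since an exact two-sided permutation test of 2 against 2 gives at least p = 0.333. In TPM, mitoferrin 1 exceeded mitoferrin 2 in every library, by 2.98 and 2.59 times in untreated cells and by 2.55 and 2.51 times after hemin.

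Neither sensor passed the test. ACO1 (ENSG00000122729, chr9:32384603-32454769, plus strand) encodes the cytosolic aconitase, which becomes iron regulatory protein 1 when it lacks its iron-sulphur cluster. It was the least abundant member, at 8.06 and 7.72 TPM in untreated cells and 8.26 and 9.39 TPM after hemin, and its counts were 207 and 199 against 208 and 246, so both hemin libraries were higher by a little. The log2 fold change of the counts was 0.15 with a 95% interval of -0.054 to 0.36 (edgeR adjusted p = 0.313). IREB2 (ENSG00000136381, chr15:78437431-78501453, plus strand) encodes iron regulatory protein 2, which is degraded when iron is plentiful. Its level was 43.7 and 46.3 TPM in untreated cells and 45.5 and 47.5 TPM after hemin, with overlap, and its counts were 1036 and 1054 against 1097 and 1138. For IREB2 the log2 fold change was 0.09 with a 95% interval of -0.033 to 0.21 (edgeR adjusted p = 0.319). Amounts of these proteins and their binding activity were not measured.

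The lengths that the quantification assigned to each gene add a view of which messages were used. RSEM, the quantification program, gives for each library the transcript length weighted by abundance. For SLC25A37 it was 2847 and 2862 bases in untreated cells and 3363 and 3195 after hemin, a rise of 14.8% with no overlap. In TPM, which divides by length, SLC25A37 moved from 102 ± 3.62 (SD, n = 2) to 82.2 ± 0.587 (SD, n = 2), a log2 change of -0.32 beside -0.08 in counts. TFRC went from 3778 and 3576 bases to 3872 and 3915, a rise of 5.93% with no overlap. Lengths without overlap were common, being found in 29.5% of genes tested, and 10.3% of genes tested had one at least as large as that of SLC25A37 and 20.9% one at least as large as that of TFRC. The length of SLC11A2 ran from 1764 to 2469 bases between the untreated libraries and was 2326 and 1968 in the hemin libraries, so the division of its reads between messages was not steady within a group. FTL and PCBP1, with a single length, did not vary. These lengths were not tested.

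**Figure D4:**
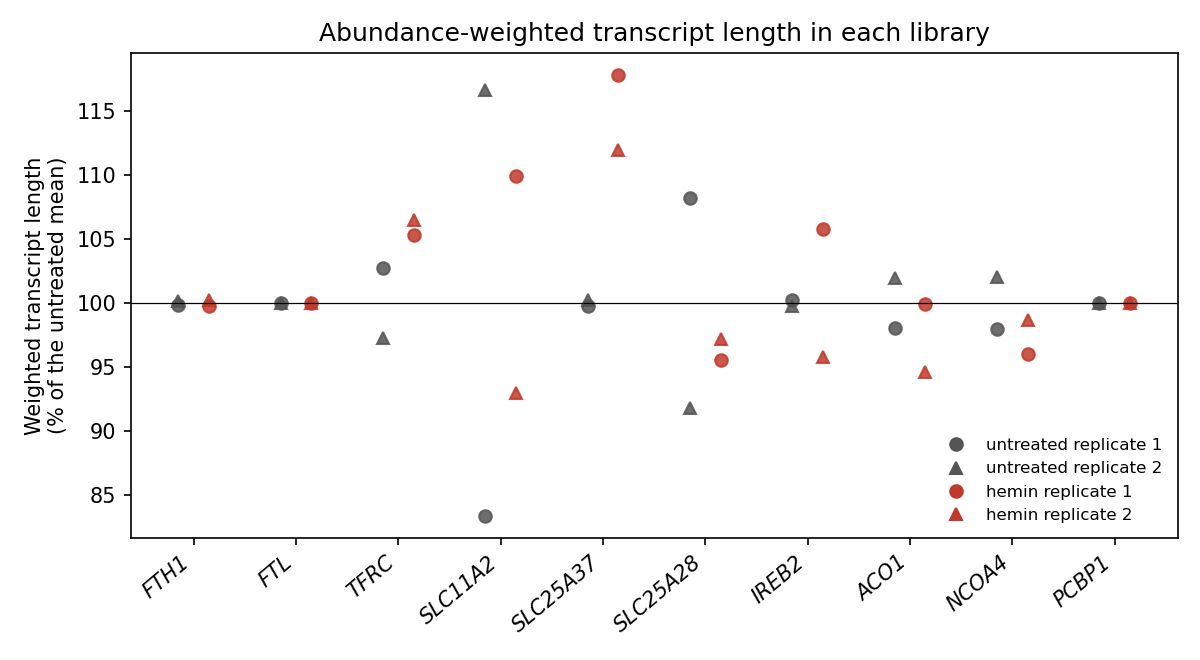
Abundance-weighted transcript length of each gene in each library, as percent of the mean of the untreated libraries (vertical axis, not starting at 0). In SLC25A37 and TFRC the hemin points lie above both untreated points, while in SLC11A2 the points of both groups are spread over each other.

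Beyond the members, 71 genes in 7 lists of iron handling were examined, of which 57 passed the filter on low counts. In all, 5 of the 57 were higher and 3 lower after hemin, with a median log2 fold change of 0.012. Over all genes tested the shares were 7% higher and 7.14% lower and the median -0.0048, so these counts lie near the background, and the single lists hold too few genes to be read against it. No gene of the 12 tested for uptake and endosomal release passed, the smallest p belonging to TF, which encodes transferrin itself, at -0.25 (edgeR adjusted p = 0.141). Of 4 export genes tested, HEPH, a ferroxidase that works with the exporter ferroportin, fell by 0.16 on the log2 scale (edgeR adjusted p = 0.0458), from 1277 and 1162 counts to 1050 and 1137. SLC40A1, the exporter itself, was at 0.13 (edgeR adjusted p = 0.449).

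In the list of the ferritin family, chaperones and delivery, 1 of 5 tested rose. It was PCBP2, the close relative of PCBP1, from 3785 and 3690 counts to 4038 and 4380, at a log2 fold change of 0.16 (edgeR adjusted p = 0.0244). Mitochondrial ferritin FTMT and the ferritin heavy chain-like gene FTHL17 had no count in any library, where 3 counts would be 0.364 to 0.402 CPM (counts scaled to library size). Of the 5 genes that act in turnover of iron regulatory proteins, 2 rose. They were CUL1, a scaffold of ubiquitin ligases, from 722 and 713 counts to 830 and 927 (log2 fold change 0.28, edgeR adjusted p = 0.00889), and HERC2, a ubiquitin ligase, from 2367 and 2178 to 2441 and 2613 (log2 fold change 0.15, edgeR adjusted p = 0.0433). Both also serve many other substrates. FBXL5, the iron-binding subunit that selects the regulatory proteins, was at -0.29 (edgeR adjusted p = 0.0905).

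Among 5 tested of the other messages known for an iron-responsive element, ALAS2 fell, from 848 and 809 counts to 705 and 694 (log2 fold change -0.25, edgeR adjusted p = 0.0252). CDC14A, which encodes a phosphatase, was at 0.24 and did not pass (edgeR adjusted p = 0.0687). In mitochondrial iron-sulphur cluster assembly, 1 of 17 tested rose and 1 fell. IBA57, a late assembly factor, went from 95 and 87 counts to 142 and 128 (log2 fold change 0.56, edgeR adjusted p = 0.0306), and ISCU, the scaffold on which clusters are built, from 325 and 328 to 262 and 264 (log2 fold change -0.32, edgeR adjusted p = 0.0335). In cytosolic assembly, 1 of 9 rose, which was MMS19, an adaptor that delivers clusters to DNA enzymes, from 740 and 737 counts to 845 and 916 (log2 fold change 0.25, edgeR adjusted p = 0.0159). Of these 8 calls, HEPH held in 4 of 14 other settings and CUL1 and MMS19 in 11, with the rest between. DESeq2 called PCBP2, CUL1 and MMS19. It did not call HEPH (DESeq2 adjusted p = 0.21), HERC2 (0.0605), ALAS2 (0.0753), ISCU (0.177) or IBA57 (0.126). Neither limma setting called any of the 8. Without untreated replicate 1 none of the 8 passed in edgeR (adjusted p from 0.0594 for CUL1 to 0.191 for HEPH). Without untreated replicate 2 only CUL1 and MMS19 passed, without hemin replicate 1 HEPH, HERC2 and IBA57 did not, and without hemin replicate 2 HEPH, HERC2, ALAS2 and ISCU did not.

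**Figure D5:**
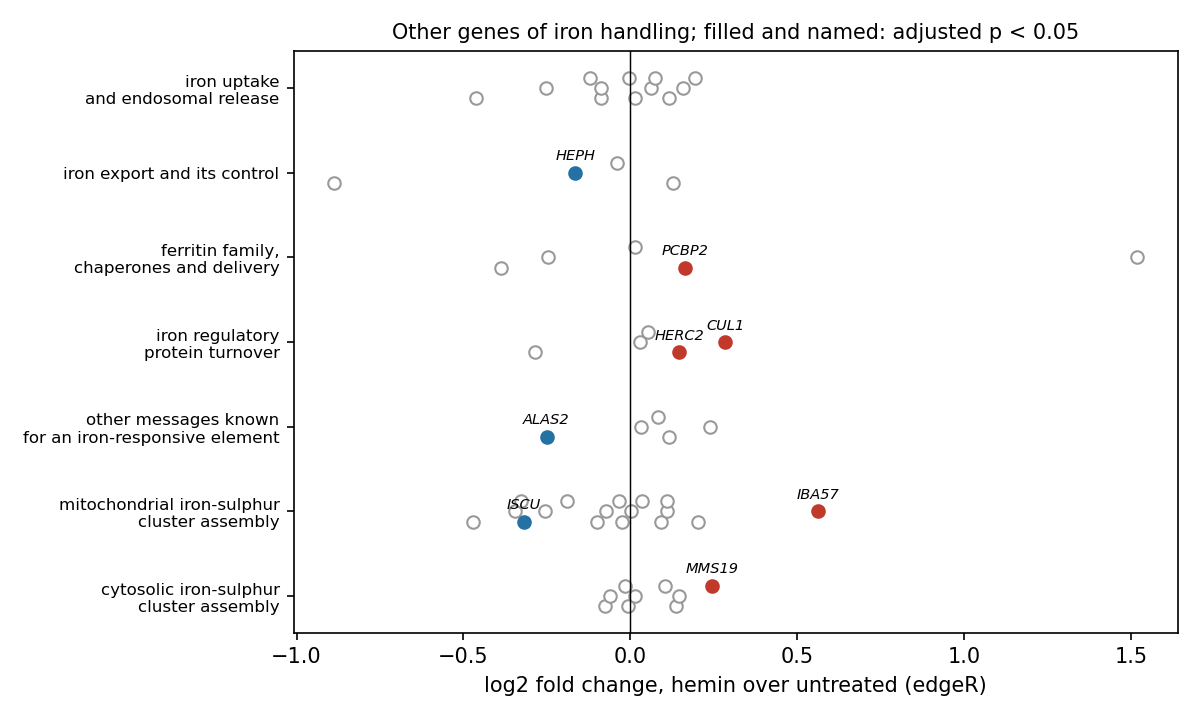
Log2 fold change after hemin (horizontal axis, edgeR on counts, 2 libraries per group) of each tested gene of the 7 iron lists, 1 line per list. Filled and named points passed an adjusted p of 0.05, red for the 5 higher genes and blue for the 3 lower ones, and no point of the uptake list is filled.

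The identity of the cells was checked with marker genes. All 12 erythroid and K562 markers were tested, of which LMO2, HBE1 and HBZ rose and NFE2 fell. The erythroid factor GATA1 stood between 113 and 121 TPM in every library. Of 11 markers of other cells, CD3E, MS4A1, MPO and CDH5 had no count in any library and 10 had too few counts to be tested, while EPCAM was the exception at 42.4 to 49.2 TPM. Replicate libraries varied beyond counting error. Over genes with at least 20 counts in a pair, chi-square per gene averaged 1.83 between the untreated libraries and 2.24 between the hemin ones.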

How the data were processed

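Poly(A) RNA of untreated and hemin-treated K562 cells was analysed from the processed tables. The authors trimmed reads with Trimmomatic 0.39 and quantified each library with RSEM 1.3.1, using STAR, on Ensembl 106. The deposited expected counts are unnormalized read estimates for each gene, in which RSEM splits shared reads. The deposited posterior means and SDs of these counts describe how certain that split is. The authors' TPM are scaled by effective length, which was shorter than the length by a median of 48.4 bases. The study's methods state a longer mean fragment length, so this gap is not accounted for, and TPM of short messages, with the ranks and the FTH1 to FTL ratio that rest on them, could shift with it. Lengths in the deposited tables are given in bases. The authors' mean TPM equalled the means of the libraries. The authors' FPKM were not used.

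Rounded expected counts that passed filterByExpr were normalized by TMM and tested in edgeR 4.0.16 (R 4.3.3), with condition as the only term and a threshold of 0.05 after Benjamini-Hochberg adjustment over all genes tested. The common dispersion was 0.00118. Ratios of TPM were compared by exact permutation over libraries. Coordinates and UTRs came from GENCODE 44 on GRCh38, a later release than the annotation of the counts. The test was also run on simulated counts, with changes larger than those of the members and the same dispersion for every gene. That run does not bear on calls of small changes.

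The members and lists were chosen with earlier results of these data known. Named genes were all members, every listed iron gene past the threshold or, in a list with none, that with the smallest p, the 3 highest pseudogenes of each ferritin family, and the 3 genes nearest to FTH1. Listed genes without a call that are also named, the marker genes, and the genes overlapping members were chosen after their values were seen. The 14 alternatives were RLE factors, library size only, no filter, at least 20 counts, a replicate block, each library left out, posterior mean counts, summed pseudogene counts, DESeq2 1.42.0, and limma 3.58.1 on log2(TPM + 1) and log2(TPM + 0.1). Ratios from expected counts were added after the values were seen. Counting limits cover counting error only.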

Additional observations from a re-analysis of the deposited data

How the results depend on the processing

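FTH1 was called higher in all 14 other settings, with log2 fold changes of 0.79 to 0.85 and adjusted p of at most 0.0148. No named member changed direction in any setting, and SLC11A2, SLC25A37, SLC25A28, IREB2 and ACO1 were called in 0 of them. FTL and TFRC were called in 12, the exceptions being limma on log2(TPM + 1) and log2(TPM + 0.1), with adjusted p up to 0.146 and 0.376. PCBP1 was called in 10 and NCOA4 in 8. With either limma setting, 1 member, FTH1, was called higher and 0 lower, and over all genes 14 and 15 were higher and 33 and 34 lower. DESeq2 called 602 genes higher and 481 lower, and 0 members lower. Leaving out each library in turn gave 469 to 934 genes higher, 512 to 884 lower, 3 to 4 members higher and 0 to 1 lower, where the spread of the remaining lone library was taken from the other pair. The lowest counts over all genes came without untreated replicate 1. Library size only gave 729 genes higher and 1358 lower. No filter called 1464 higher and 1321 lower of 32438 genes, and posterior mean counts 1347 and 1357. From counts, the log2 change of the ratio of ferritin to TFRC was 0.3367 (expected), 0.3368 (posterior mean) and 0.3372 (expected, with pseudogenes summed). From TPM, which also divides by length, it was 0.45. The cause of these shifts was not tested. Replicate numbers are shared between groups, but deviations of same-numbered libraries had a correlation of 0.0047 over genes, so the numbers were not taken as a pairing. With the replicate block, 855 genes were higher and 886 lower, and 4 members were higher and 1 lower. With 2 libraries per group, small changes of genes with few counts, such as ACO1, SLC25A28 and SLC11A2, could have been missed.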

Other observations

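Of the 26 genes with an iron-responsive fold in a UTR by the search, 19 were tested, of which 4 were higher after hemin and 1 lower, with a median log2 fold change of 0.064. Over all genes tested, 7% were higher and 7.14% lower, with a median of -0.0048. Of the 4 higher genes, 3 are the members FTH1, FTL and TFRC described above, which adds nothing independent of them. Of the 8 tested with the fold in the 5′ UTR, 3 were higher, namely FTH1, FTL and ENC1, and 1 lower, which was ALAS2. Of the 11 tested with it in the 3′ UTR, TFRC was the 1 called. ENC1, which encodes an actin-binding protein, went from 93 and 85 counts to 142 and 151 (log2 fold change 0.71, edgeR adjusted p = 0.00674). It was named after its values were seen.

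The tested genes whose log2 CPM (counts scaled to library size), centred on their mean, ran closest to those of FTH1 over the 4 libraries, by Euclidean distance, were ENSG00000225513, ENSG00000288534 and PRH1. ENSG00000225513 had 5 and 5 counts in untreated cells and 10 and 11 after hemin, and PRH1 had 11 and 10 against 20 and 22, and neither was called. ENSG00000288534, annotated as a read-through gene, had 248 and 237 counts against 420 and 464 (log2 fold change 0.86, edgeR adjusted p = 2.7e-04). The likeness rests on 4 libraries in 2 conditions.

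HJV, a co-receptor that controls the iron hormone hepcidin, was the listed export gene with the largest fitted change, from 53 and 41 counts to 22 and 29 (log2 fold change -0.89), and missed the threshold (edgeR adjusted p = 0.0509). BOLA2B had 5 and 7 counts in untreated cells and 19 and 16 after hemin (log2 fold change 1.52, edgeR adjusted p = 0.0573), while its near-identical copy BOLA2 had 113 and 102 against 92 and 90 (-0.25, edgeR adjusted p = 0.289), so the division of reads between them is uncertain. BEST1, which overlaps FTH1 on the other strand, had 32 and 21 counts against 15 and 16.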
